A study of Mus musculus with 4 samples.

Results

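Zbtb18, the gene targeted in these mice under its older name Rp58, was examined together with every array probe placed around it on chromosome 1. All probes that are not controls and whose coordinate lies in a window of 230 kb around the gene were taken, which gave 7 of the 56605 probes on the array. These 7 probes carry 7 of the 37325 gene or transcript names of the array. They report Zbtb18, the long non-coding RNAs Gm29856 and Gm36904, the uncharacterised transcript LOC102642028, the cDNA clones AK156859 and AK048867, and an unnamed long intergenic non-coding RNA. The genotype differences of Gm29856, AK156859 and Gm36904 at both ages were known when the window was chosen. The members were thus selected on these genotype differences, which are given here as a description with no test. Age did not enter that choice and was tested.

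Zbtb18 encodes RP58, a transcriptional repressor with a BTB domain for contacts with other proteins and zinc fingers that bind an E-box-like DNA motif. It is known for its role in neuron production, migration and maturation in the developing cortex and hippocampus, where it represses proneural genes such as Neurog2. Long non-coding RNAs are transcripts without a known protein product, and many lie beside genes for transcription factors. The roles of Gm29856, Gm36904, LOC102642028 and the cDNA clones are not given in the sources used here.

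The arrays held hippocampal RNA of wild-type (WT) mice and of mice with 1 knocked-out copy of Rp58 (hetero-KO), at 4 months and at 18 months. Each of the 4 groups was 1 Cy3-labelled Agilent array with RNA pooled from 3 samples, so that no group had a replicate, and precision is limited by the number of arrays. The older groups carry an age of 18 months in 1 label, 1.5 years in their titles and 12 to 18 months in their descriptions. The labels give neither the deleted part of the gene nor the strain or the sex of the mice, and WT and hetero-KO mice are not stated to be littermates. All 4 arrays lay on 1 slide with 1 scan time.

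The probe sequences of the 3 transcripts with the large genotype differences are shown because these values rest on 1 probe each. They are written 5′ to 3′ as the scanner files give them, in lower case throughout, since no stretch of a probe was singled out. No other probe of the array shared 20 bases with any of the 7, as counted by exact matches.
Gm36904: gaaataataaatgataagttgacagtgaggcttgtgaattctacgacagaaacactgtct
Gm29856: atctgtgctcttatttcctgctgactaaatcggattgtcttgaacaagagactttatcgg
AK156859: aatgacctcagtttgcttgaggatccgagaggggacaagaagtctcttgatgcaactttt
In mouse build mm9 these probes lie on the plus strand at chr1:179238873-179238932, chr1:179391247-179391306 and chr1:179406323-179406382. The Zbtb18 probe lies between them, also on the plus strand, at chr1:179380753-179380812. Gm29856 is therefore 10.5 kb and AK156859 25.6 kb from the Zbtb18 probe towards higher coordinates, while Gm36904 is 141.9 kb away on the other side. The remaining 3 probes read the minus strand. LOC102642028 and AK048867 are 23.8 kb and 21.3 kb from the Zbtb18 probe on the Gm36904 side, and the unnamed long intergenic non-coding RNA is 182.5 kb away on that side. RefSeq's gene order in assembly GRCm38.p6, used for names alone, places Gm36904, Zbtb18, Gm29856 and Gm7064 one after the other. Whether a probe falls in an exon or a UTR was not determined here.

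Levels are given as the processed signal of the probe divided by the 75th percentile of its array, and log2 differences are taken between such levels. The spot error is the scanner software's own error of a single spot, carried over to the difference of a pair of arrays. It covers neither the spread between mice nor that between pools. A probe is called measured where its spot was well above background by the software's test. Of the 7 probes, 6 were measured on all 4 arrays, and Gm36904 was measured on the hetero-KO arrays only. None of the 7 was saturated.

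**Figure D1:**
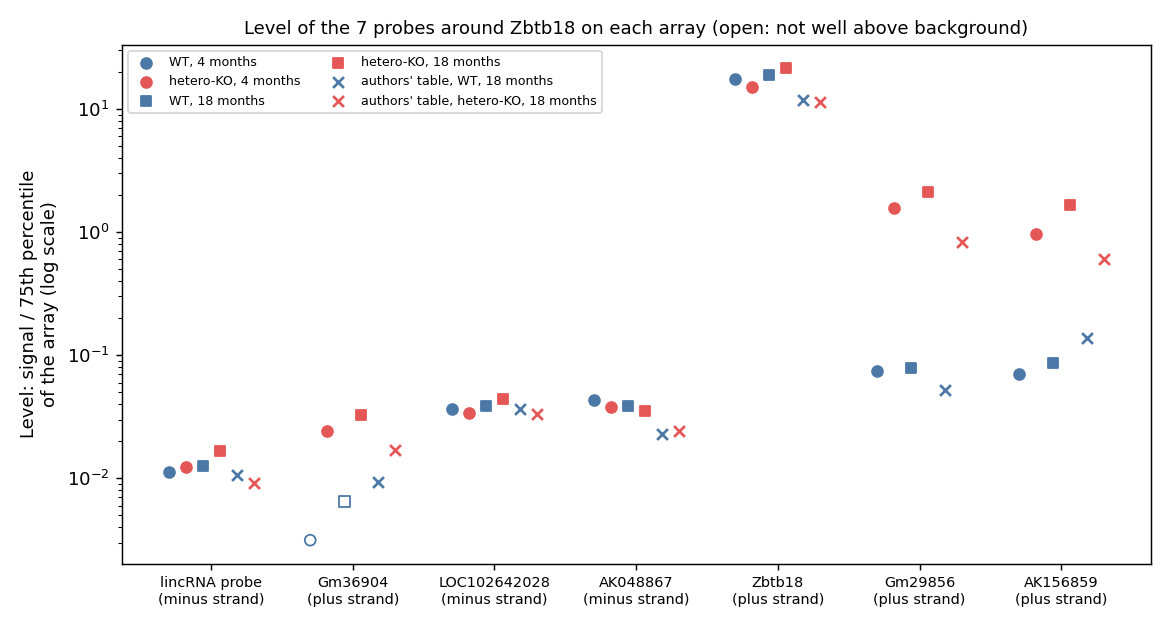
Level of each of the 7 probes on the 4 arrays (filled circles, 4 months; filled squares, 18 months; blue, WT; red, hetero-KO; open symbols, not well above background) and in the 18-month columns of the authors' deposited table (crosses), on a log scale and in order along chromosome 1. Gm29856 and AK156859 lie between 0.0709 and 0.0870 on both WT arrays and between 0.971 and 2.10 on both hetero-KO arrays, while the red and blue symbols of Zbtb18 lie close together.

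The Zbtb18 probe, the first check of the genotype labels, read 17.5 on the WT array of 4 months and 15.2 on the hetero-KO array of that age. At 18 months the levels were 18.9 for WT and 21.4 for hetero-KO. The hetero-KO array was thus the lower of the pair at 4 months and the higher at 18 months, so that the ranges of the genotypes overlapped. On the log2 scale hetero-KO differed from WT by −0.20 and 0.18, each with a spot error of 0.20. Neither difference exceeded the spot error, and neither was near a halving of the level. The sources used here do not say whether the probe lies in the deleted part, nor whether the rest of the transcript is lowered. What the probe says about the genotype labels is therefore not known. In the authors' deposited table, whose 18-month columns match no scanner file, Zbtb18 had the values 11.8 for WT and 11.4 for hetero-KO, a log2 difference of −0.04.

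Gm29856, the nearest RefSeq neighbour of Zbtb18 towards higher coordinates, was the member with the largest genotype differences. The WT arrays gave levels of 0.0743 at 4 months and 0.0788 at 18 months, and the hetero-KO arrays 1.58 and 2.10. Both WT arrays were low and both hetero-KO arrays were high, with no overlap. The raw processed signals behind these levels were 147 and 3346 at 4 months and 137 and 3596 at 18 months. The level was 21.3-fold higher in hetero-KO at 4 months (log2 4.41, spot error 0.21) and 26.6-fold higher at 18 months (log2 4.73, spot error 0.21). Among all probes, this was the 11th largest increase at 4 months and the 1st at 18 months.

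AK156859, a cDNA clone that the array annotation describes as coming from activated spleen, had the same arrangement of arrays. The WT arrays gave 0.0709 at 4 months and 0.0870 at 18 months, and the hetero-KO arrays 0.971 and 1.66. The raw signals were 140 and 2051 at the younger age and 151 and 2847 at the older age. Again both WT arrays were low and both hetero-KO arrays high. AK156859 was 13.7-fold higher in hetero-KO at 4 months (log2 3.78) and 19.1-fold higher at 18 months (log2 4.25), with a spot error of 0.21 at each age. These were the 33rd and the 2nd largest increases on the arrays. The Gm29856 and AK156859 probes are 15.1 kb apart on the same strand, and whether they belong to 1 transcript was not determined here.

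Gm36904, the long non-coding RNA on the other side of Zbtb18, was not well above background in WT. It read 0.00315 and 0.00647 on the WT arrays of 4 and 18 months, and 0.0242 and 0.0329 on the hetero-KO arrays. With each WT value held at the higher of its own level and the lowest level well above background on that array, Gm36904 was at least 4.20-fold higher in hetero-KO at 4 months and at least 4.32-fold higher at 18 months. The differences between the levels as read were 2.94 and 2.35 on the log2 scale, with spot errors of 0.70 and 0.48. The Gm36904 difference was smaller with the normexp correction, which adds an offset of 50 to every signal. It was then 0.63 at 4 months and 0.60 at 18 months, below 2-fold at both ages. The raw processed signals of WT and hetero-KO were 6.22 and 51.1 at 4 months and 11.2 and 56.3 at 18 months. An offset of that size shrinks any fold of a probe this dim. The normexp values therefore cannot decide whether Gm36904 differed by 2-fold.

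The other members lay within 0.40 of their WT level on the log2 scale at each age. LOC102642028 read 0.0369 and 0.0386 on the WT arrays of 4 and 18 months, and 0.0340 and 0.0441 on the hetero-KO arrays (log2 differences −0.12 and 0.19, spot errors 0.22). AK048867, a cDNA clone from neonate cerebellum per the array annotation, read 0.0432 and 0.0382 at 4 months and 0.0385 and 0.0354 at 18 months (log2 differences −0.18 and −0.12). These differences of LOC102642028 and AK048867 were no larger than the spot error. The unnamed long intergenic non-coding RNA read 0.0113 and 0.0124 at 4 months and 0.0127 and 0.0167 at 18 months. Its log2 difference was 0.13 at 4 months and 0.40 at 18 months, beside spot errors of 0.32 and 0.33. The 3 minus-strand probes ranged from −0.18 to 0.40, and 3 of the 4 plus-strand probes, all but Zbtb18, were past 2-fold at both ages.

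A probe was counted as past 2-fold where its fold, or its bound, was 2 or more and it was well above background on at least 1 array of the pair. At 4 months 3 of the 7 members were at least 2-fold higher in hetero-KO, where 1.08% of 46396 probes were, and 0 members were 2-fold lower, where 1.16% were. At 18 months it was again 3 members higher and 0 lower, beside 0.933% and 0.882% of 45000 probes. The same 3 members, Gm29856, AK156859 and Gm36904, were 2-fold higher at both ages, as were 23 of 44205 probes, which is 0.052%. Since these differences chose the window, nothing is read from the members' counts. Of the 23 probes, 7 lay on chromosome 1, which holds 6.40% of the probes with a coordinate. The 3 members that chose the window are among these 7, so nothing is read from that share either. The 4 outside the window report Ifi202b, by 2 probes, Slamf8, and an unnamed RNA more than 5 Mb away.

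**Figure D2:**
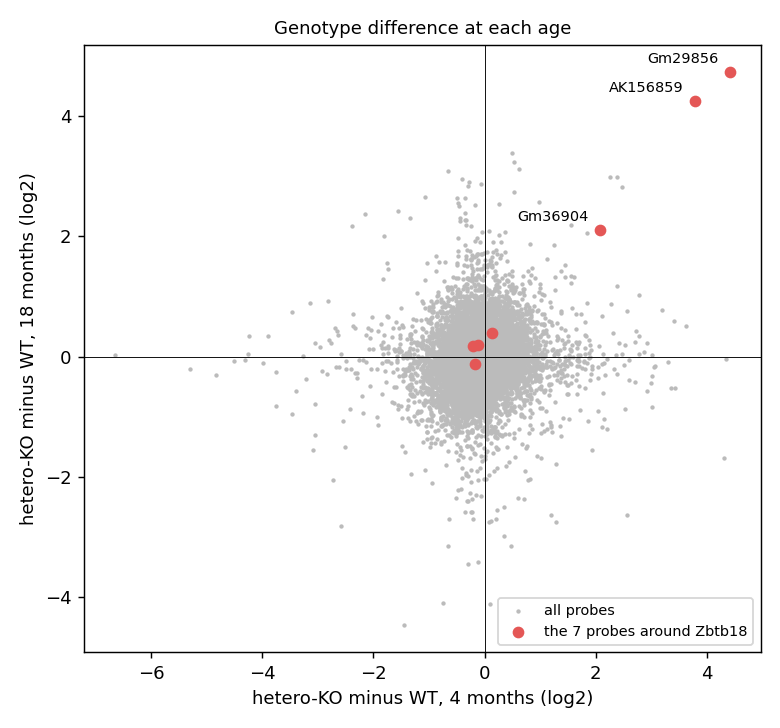
Log2 difference of hetero-KO from WT at 4 months (x axis) against that at 18 months (y axis) for all probes (grey) and the 7 members (red), with bounds in place of unmeasured values. Gm29856 at 4.41 and 4.73 and AK156859 at 3.78 and 4.25 stand at the upper right, and Gm36904 stands at its bounds of 2.07 and 2.11.

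The genotype difference at 18 months exceeded that at 4 months by 0.32 on the log2 scale for Gm29856, by 0.48 for AK156859 and by 0.38 for Zbtb18. With 1 array per group the change of a genotype difference with age leaves no residual degrees of freedom, and it was not tested. For Gm29856 and AK156859 the levels of the 2 ages lay farther apart in hetero-KO than in WT. The hetero-KO levels differed between the ages by 0.40 for Gm29856 and 0.77 for AK156859, and the WT levels by 0.08 and 0.29. Zbtb18 itself differed between the ages by 0.11 in WT and 0.49 in hetero-KO. The spot error of these Zbtb18 differences was 0.20. For the age differences of Gm29856 and AK156859 it was 0.21 in WT and 0.20 in hetero-KO.

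The authors' deposited table gave a further set of 18-month values whose source arrays are unknown. The 4-month columns equalled the levels used here up to a constant per array, being 0.56% lower in WT and 0.62% lower in hetero-KO with a median deviation of 0.0% around that, so they add no information. The 18-month columns deviated from the scanner arrays of the same label by a median of 18.0% in WT and 17.1% in hetero-KO. Their log2 values correlated with the array of the same label at 0.982 in WT and 0.981 in hetero-KO. For each column the highest correlation, 0.985, was with an array of another label. Genotype and age of these columns therefore rest on their labels alone. In those columns Gm29856 had the values 0.0523 for WT and 0.825 for hetero-KO, which is 15.8-fold higher. AK156859 stood at 0.139 and 0.605, which is 4.34-fold higher, a smaller difference than on the scanner arrays of either age. Gm36904 stood at 0.00938 and 0.0170, which is 1.81-fold higher and short of 2-fold. Gm29856 had the 7th and AK156859 the 86th largest increase in the table at that age. In all, 2 of the 7 members were at least 2-fold higher there, beside 0.672% of 47191 probes. The minus-strand members differed by −0.21 (the unnamed long intergenic non-coding RNA), −0.13 (LOC102642028) and 0.09 (AK048867) on the log2 scale.

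Age was tested over both genotypes in limma, with genotype and age as additive terms, fitted to 44886 probes with Benjamini-Hochberg adjustment. The fit has 1 residual degree of freedom, which is the change of the genotype difference with age, combined by limma with that of all probes. No group has another pool, so the p-values measure neither the spread between pools of a group nor that between single mice. The arrays of the 2 ages also differed in Xist, Y-linked and thalamus and habenula markers, given below. With 1 array per group, an age difference cannot be told apart from differences in sex or dissected tissue. None of the 7 members passed, where 0.392% of probes rose and 0.379% fell from 4 to 18 months at an adjusted p under 0.05. Zbtb18 differed by 0.30 ± 0.09 on the log2 scale (SE, limma, unadjusted p = 0.0263, adjusted p = 0.171), with the older array the higher in both genotypes. AK156859 differed by 0.53 ± 0.13 (SE, limma, unadjusted p = 0.0099, adjusted p = 0.117), again higher at 18 months in both genotypes. These were the 2 members with an unadjusted p under 0.05, which 9770 of all 44886 probes also had. Gm29856 differed by 0.24 (limma, adjusted p = 0.244) and Gm36904 by 0.74 (limma, adjusted p = 0.245). The minus-strand members had limma adjusted p-values of 0.471 for LOC102642028, 0.545 for the unnamed RNA and 0.612 for AK048867. In the authors' deposited table the direction was the opposite for Zbtb18 (−0.48, limma adjusted p = 0.00205) and for Gm29856 (−0.72, limma adjusted p = 0.0115), in a fit that called 14297 probes.

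**Figure D3:**
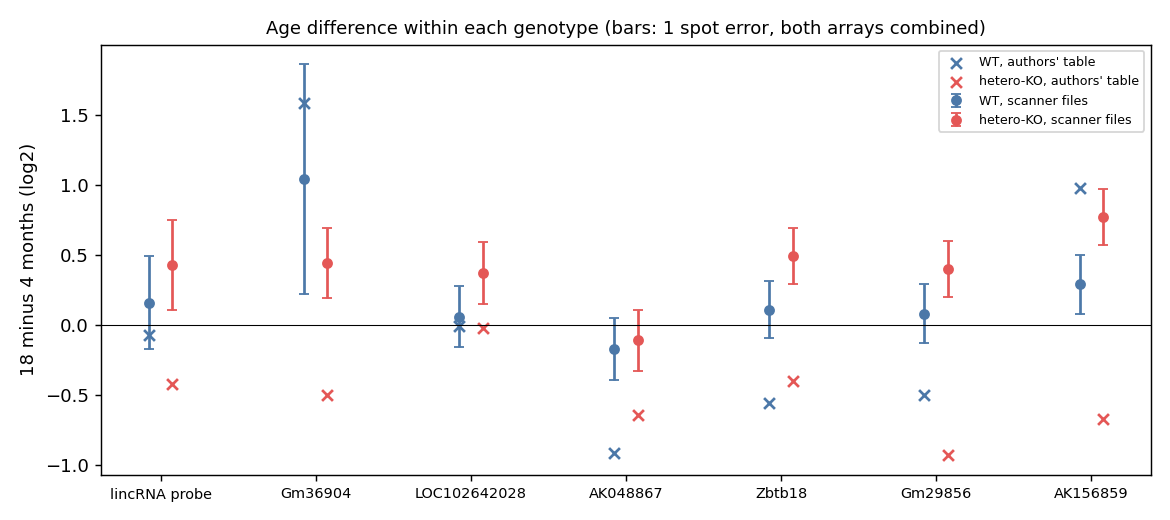
Log2 difference of 18 from 4 months within WT (blue) and within hetero-KO (red) for each member, from the scanner files (circles, bars of 1 spot error on either side) and from the authors' deposited table (crosses). Zbtb18 lies at 0.11 and 0.49 from the scanner files and at −0.56 and −0.40 in the table, and Gm29856 at 0.08 and 0.40 against −0.50 and −0.93.

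The nearest probes outside the window were compared in the same way. On the Gm36904 side, Sdccag8, a centrosomal protein gene 494.8 kb from the Zbtb18 probe, read 0.261 and 0.276 on the WT arrays of 4 and 18 months and 0.273 and 0.263 on the hetero-KO arrays, log2 differences of 0.07 and −0.07. On the AK156859 side, 2310043L19Rik at 191.0 kb and an unnamed probe at 291.8 kb were not well above background on any array, and so was an unnamed probe at 519.5 kb on the Gm36904 side. 1700016C15Rik at 302.6 kb differed by −0.19 and −0.16. Sdccag8 and 1700016C15Rik thus differed by less than 0.20 at both ages, whereas Gm29856 and AK156859 differed by 3.78 or more.

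Within 5 Mb of the window but outside it, 287 probes were placed. At 4 months 235 of them could be compared, of which 5 were higher and 2 lower in hetero-KO by 2-fold or more, 2.98% beside 2.24% of all probes outside the window. At 18 months 229 could be compared, again with 5 higher and 2 lower, 3.06% beside 1.81%. The median log2 difference of these flanking probes was −0.02 at each age. Within 2 Mb, 1 probe was past 2-fold at 4 months and 2 at 18 months, and none was so at both. The probe at 4 months reports Gm36360, with a log2 difference of 3.30 at that age and −0.09 at 18 months. Both probes at 18 months report Pld5, a member of the phospholipase D family, with −1.57 and −1.19. Other Pld5 probes differed by −0.22 and −0.54 at that age, short of 2-fold. These genes were singled out after their values were seen.

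**Figure D4:**
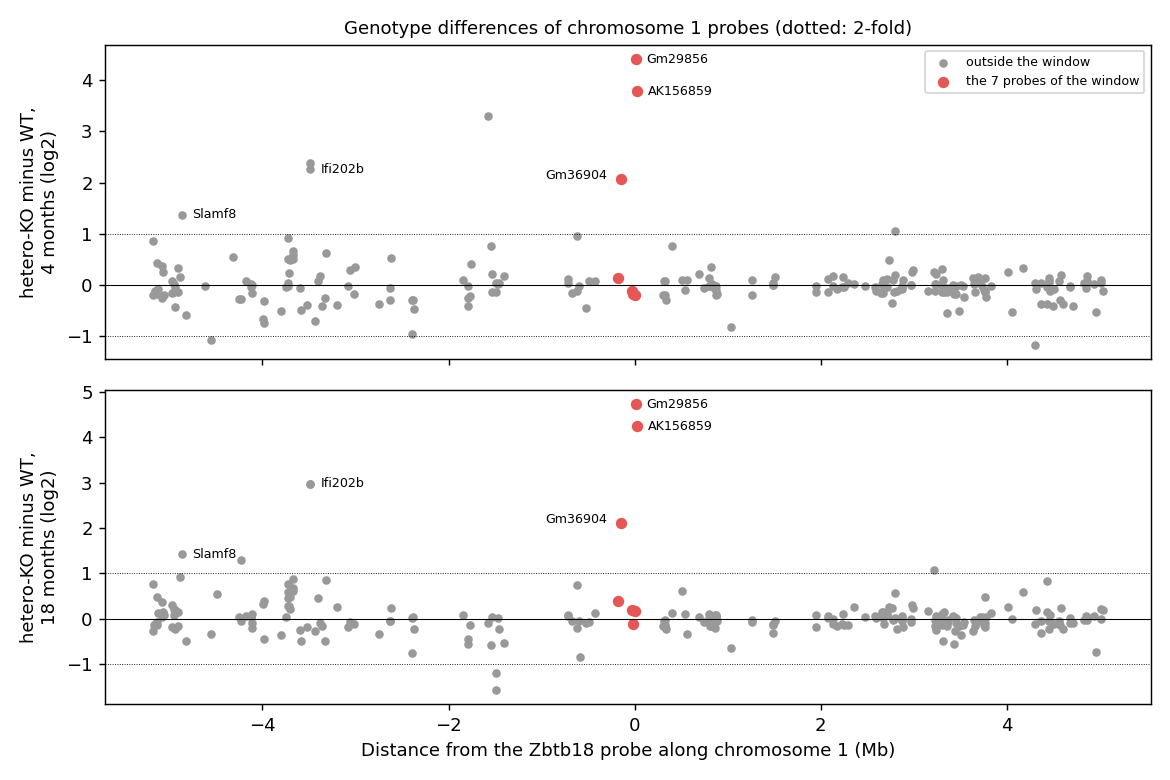
Log2 difference of hetero-KO from WT at 4 months (upper panel) and 18 months (lower panel) against the distance in Mb from the Zbtb18 probe, for chromosome 1 probes outside the window (grey) and the 7 members (red), with dotted lines at 2-fold. Gm29856, AK156859 and Gm36904 stand above the 2-fold line at both ages, and among the grey points Ifi202b and Slamf8 do so at both ages.

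On the Gm36904 side, the flanking probes past 2-fold at both ages reported Ifi202b, 3.49 Mb from the Zbtb18 probe, and Slamf8, 4.87 Mb away. They were also singled out after their values were seen. Ifi202b is an interferon-inducible gene whose expression is known to differ between inbred mouse strains. Its first probe read 0.00115 and 0.00152 on the WT arrays of 4 and 18 months, not well above background, and 0.0300 and 0.0600 on the hetero-KO arrays. Its second probe read 0.00137 and 0.00552 against 0.0277 and 0.0598. Ifi202b was at least 5.20-fold and 4.81-fold higher in hetero-KO by these probes at 4 months, and at least 7.89-fold and 7.86-fold higher at 18 months. Slamf8, a receptor of the SLAM family on immune cells, was 2.59-fold and 2.67-fold higher at the 2 ages. With the normexp correction, the Ifi202b probes differed by 0.95 and 0.76 on the log2 scale at 4 months and by 1.38 and 0.97 at 18 months. Slamf8 differed by 0.49 and 0.54, so that only the first Ifi202b probe at 18 months was past 2-fold. The normexp offset shrinks the folds of probes as dim as these, so a value below 2-fold there does not decide the matter. In the 18-month columns of the authors' deposited table, Slamf8 was 2.14-fold higher. The Ifi202b probes were at least 2.79-fold and 2.29-fold higher there with WT held at the lowest level well above background on any array, 0.00576, and at least 2.11-fold and 1.73-fold higher with the floor of the array of the same label, 0.0076 for WT. Strain is not given in the labels, and its part in the differences of Gm29856, AK156859, Gm36904, Ifi202b and Slamf8 was not tested. Of the 23 probes at least 2-fold higher at both ages, 7 were also 2-fold higher in those columns with the lower floor and 6 with the floor of the same label. Besides Gm29856 and AK156859 they report Ifi202b, by 2 probes or 1, and Slamf8, Hmga2 and B230110G15Rik.

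Other probes whose 4 levels ran most like those of a member were found by the root mean square distance between log2 levels, each centred on its own mean over the 4 arrays. Levels not well above background were held at the higher of their own value and the lowest level well above background on that array, a choice made after the values were seen. For Gm29856 the closest was AK156859 at 0.317, followed outside the window by Ifi202b at 0.977, Igf2os at 1.31, B230110G15Rik at 1.35, Prps1l1 at 1.51 and A630023P12Rik at 1.55. For AK156859 the same genes followed Gm29856, from Ifi202b at 0.674 to A630023P12Rik at 1.27. Gm36904 ran closest to Igf2os at 0.122, B230110G15Rik at 0.181, A630023P12Rik at 0.306, Ifi202b at 0.354 and Slamf8 at 0.39. Ifi202b and Prps1l1 were measured on 2 arrays only, as was Gm36904, so that these distances rest partly on bounds. With the levels as read, Ifi202b stood at 0.319 from Gm29856 and 0.50 from AK156859, and the genes next in order differed. The nearly flat profile of Zbtb18 had its closest matches at I830077J02Rik, Gm32139, Hyls1, Pros1 and Kmt2d, with distances of 0.00728 to 0.0127. Zbtb18 was 2.29 from Gm29856 and 2.01 from AK156859. These distances describe 4 points that share the slide. Gm29856, AK156859 and Gm36904 were selected on genotype differences in these same levels. Nothing is therefore read from their distances to each other or to Zbtb18.

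The promoter table of RefSeq (build GRCm38.p6) holds 5 windows for Zbtb18 and 1 for Gm36904, each from 250 bases before a transcript start to 50 after it. They were searched on both strands for ACATCTG, the core of the motif that RP58 is known to bind. The motif occurred in 2 of the 5 Zbtb18 windows and not in the Gm36904 window, beside 4.4% of all 32851 windows of that length in the table. The 5 Zbtb18 windows belong to 1 gene and some of them overlap, so nothing is read from their share. The Zbtb18 window farthest upstream is shown because it holds the motif, in capitals, in a stretch of 81.7% G and C. It lies on the plus strand at chr1:177442101-177442400 in GRCm38.p6.
Zbtb18: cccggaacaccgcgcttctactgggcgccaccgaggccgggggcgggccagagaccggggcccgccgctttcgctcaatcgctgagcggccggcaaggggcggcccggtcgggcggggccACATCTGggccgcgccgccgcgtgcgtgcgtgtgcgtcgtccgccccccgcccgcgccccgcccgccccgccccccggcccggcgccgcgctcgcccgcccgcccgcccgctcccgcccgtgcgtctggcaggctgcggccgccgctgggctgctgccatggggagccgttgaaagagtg
The other Zbtb18 window with the motif, chr1:177445571-177445870 in GRCm38.p6, holds it on the minus strand. A match is a description of the sequence only.

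Genes related to Zbtb18 by family or function were counted beside the shares of all probes past 2-fold, given above as 1.08% higher and 1.16% lower at 4 months and 0.933% and 0.882% at 18 months. Of 46 other BTB zinc finger genes, 0 were past 2-fold in either direction at either age, 20 were higher in hetero-KO at each age (43.5%, beside 42.6% of all probes at 4 months and 46.9% at 18 months), and the median log2 difference was −0.02 at each age. Over all probes the median was −0.03 at 4 months and −0.01 at 18 months. Of 8 genes reported as RP58 targets, namely Id1, Id2, Id3, Id4, Neurog2, Neurod1, Pax6 and Rnd2, 1 was past 2-fold higher at both ages and 0 were 2-fold lower, with medians of −0.01 and −0.02. That gene was Neurog2, a proneural transcription factor, at 0.0455 and 0.0422 on the WT arrays and 0.133 and 0.0983 on the hetero-KO arrays. Its log2 difference was 1.55 and 1.22 on these arrays, and 0.23 in the 18-month columns of the authors' deposited table, short of 2-fold. None of 7 corepressor and DNA methyltransferase genes was past 2-fold, with medians of 0.03 and −0.04. These lists, like the members, were drawn up with results of these arrays known.

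Markers of hippocampal neurons were measured on all 4 arrays, and some of them and some markers of other tissues differed with genotype. The summed level of 4 dentate granule cell markers lay between 11.1 and 13.4 on the 4 arrays. None of these 4 was past 2-fold, and 0 were higher in hetero-KO at 4 months and 1 at 18 months. Dsp differed by −0.84 and −0.70 on the log2 scale at the 2 ages. None of 5 CA pyramidal markers was past 2-fold, with Wfs1 at −0.71 and −0.76 and Bok at 0.02 and 0.67. The interneuron, astrocyte, oligodendrocyte, microglia and meningeal markers had none past 2-fold either. Of 5 striatal markers, 4 were at least 2-fold higher in hetero-KO at 4 months and 0 at 18 months, with sums of 10.9, 31.7, 12.3 and 15.4 for WT and hetero-KO at 4 months and then at 18 months. All 5 choroid plexus markers were lower in hetero-KO at both ages, 0 of them by 2-fold or more. Their sums were 96.7 and 114 on the WT arrays and 79.1 and 94.7 on the hetero-KO arrays. Of 4 Y-linked genes, 3 were at least 2-fold lower in hetero-KO at 4 months (sums of 1.0 and 0.0892), while the sums at 18 months were 2.06 in both genotypes. On the 4-month arrays Xist read 0.164 (WT) and 0.231 (hetero-KO), and neither array of 18 months had it well above background. All 5 thalamus and habenula markers were lower in hetero-KO at 4 months, 1 of them by 2-fold or more, with sums of 13.5 and 8.57. The sums at 18 months were 3.41 and 3.21. At that age Shox2 was more than 2-fold higher in hetero-KO (log2 1.29) and Slc17a6 more than 2-fold lower (log2 −1.23). These lists thus differed between the ages as well as between the genotypes. The part of any of them in the genotype or age differences of the members was not tested. With 1 array per group it cannot be told apart from genotype or age. In pooled tissue RNA, fewer cells of a type and less RNA per cell cannot be told apart.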

How the data were processed

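Hippocampal RNA of 4 pools was measured on 4 one-colour arrays. The authors' scanner files give the intensity of each spot, linear and with background corrected by Agilent Feature Extraction 11.5.1.1, per their headers and the submitters' processing notes, and all probe coordinates are in the headers' build mm9. The authors' deposited table holds a linear ratio of signal to the array's 75th percentile. It was used as an alternative. Which arrays its 18-month columns come from is unknown.

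Each processed intensity was divided by the 75th percentile of its array, taken without control spots and outliers, and spots of a probe were averaged. Percentiles were 1714 to 2111, and 77.9% to 81.9% of spots were well above background. A probe was measured where 50% or more of its spots exceeded background by the software's test. Age was fitted in limma 3.58.1 (R 4.3.3; lmFit, eBayes with a variance trend) on probes measured on at least 2 arrays, and checked on simulated data. Genotype differences at each age rest on 1 array per group and got no test. Symbols were updated through RefSeq accessions (32994 of 56605 probes matched). Strand followed the sign of the coordinates, which matched 100.0% of 4358 probes with a strand in their name.

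The text names every probe in the window, the 3 nearest probes on each side (1 of them is not reported here), the 5 genes closest in profile to 4 members, and lists of genes. Members, lists and tests were chosen with earlier results of these data known. Alternatives were normexp background correction, other scalings, the median of spots, other filters and fits for age, a fold of 1.5, a flank of 2 Mb and the authors' table.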

Additional observations from a re-analysis of the deposited data

Results flagged for a closer look

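Zbtb18 differed between hetero-KO and WT by −0.20 on the log2 scale at 4 months and by 0.18 at 18 months, in opposite directions at the ages. LOC102642028 did likewise, with −0.12 and 0.19. Each of these values was within the error of a single spot, and the difference between the ages was not tested.

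The 18-month columns of the authors' deposited table, which match no scanner file, held higher values in hetero-KO than in WT for the same transcripts as the arrays. The level was 15.8-fold higher for Gm29856, 4.34-fold higher for AK156859 and 1.81-fold higher for Gm36904.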

How the results depend on the processing

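Of 70 recomputed genotype differences of the members, 58 moved by less than the error of a spot and 12 by more. No difference past 2-fold turned its direction. Part of the 58 could not move. Each member has 1 spot, so the median of spots returned the same values, and the table's columns of 4 months repeat the scanner arrays. The count of 58 is therefore no measure of robustness. On the scanner files Gm29856 ranged from 3.85 to 4.46 at 4 months and from 4.10 to 4.73 at 18 months, and AK156859 from 3.22 to 3.81 and from 3.68 to 4.25. The normexp correction, whose offset is close to the hetero-KO signals of Gm36904, lowered the number of members past 2-fold from 3 to 2 at each age. The authors' deposited table did so at 18 months. Among smaller differences, the table turned that of Zbtb18 at 18 months to −0.04, that of LOC102642028 to −0.13, that of AK048867 to 0.09 and that of the unnamed long intergenic non-coding RNA to −0.21.

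Flanking probes past 2-fold numbered 7 at each age. They numbered 1 at 4 months and 2 at 18 months within 2 Mb, 21 and 22 at a fold of 1.5, and 1 at each age with normexp. The normexp offset shrinks the folds of dim probes.

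No member passed the age test in limma, and 3 did in the table, namely Zbtb18, Gm29856 and AK048867 (the last at −0.78, limma adjusted p = 0.023). Age differences turned to −0.25 for the unnamed RNA, −0.02 for LOC102642028, −0.48 for Zbtb18 and −0.72 for Gm29856 in the table, and to 0.01 for AK048867 with normexp. The cause was not tested. Over the settings on scanner values, the adjusted p ran from 0.12 to 0.42 for Zbtb18 and from 0.075 to 0.913 for AK156859. The age test called 346 probes, 1454 with normexp, 762 among probes measured on all 4 arrays, 127 with age alone, 14297 in the table, and 0 without a filter or without the trend, while 9770 had an unadjusted p under 0.05 in the fit reported here. Of the calls, 50.9% were higher at 18 months, against 73.7% with normexp, 31.8% with the percentile over detected probes and 32.4% after quantile normalization. At 18 months 51.4% of probes past 2-fold were higher in hetero-KO, against 40.9% in the table.

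The table floor taken from the array of the same label, the bounds in the profile distances, and normexp for Ifi202b and Slamf8 were chosen after seeing the data. No paired analysis was possible because each group held 1 array. Leaving out an array leaves no residual degrees of freedom and no group to compare, so that was not run. Signal over background limits Gm36904, and the single array per group limits every genotype difference.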
